A study of Sus scrofa domesticus with 8 samples.

Results

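The genes described here reached their highest level at 48 h of culture in porcine granulosa cells. They numbered 94 of the 10707 genes that could be named on the array, or 0.878%. They were chosen by their measured log2 levels. The mean of the 48 h arrays had to lie at least 0.8 log2 units above each of the means at 0 h, 96 h and 144 h, and both 48 h arrays had to lie above all 6 other arrays. All differences between 48 h and the other times in these genes are therefore a description of how they were chosen, and no test is given for them. Where the array held several features of a gene, the brightest by its mean over the 8 arrays stood for it.

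The cells came from 43 crossbred Landrace gilts, whose median age was 170 days and median weight 98 kg. The labels name no genotype and no drug other than antibiotics. The groups are 0 h, 48 h, 96 h and 144 h in culture, with 2 Affymetrix whole-transcript arrays each, and the cells were kept at 37 °C and 5% CO2 in DMEM with 2% fetal bovine serum, 4 mM L-glutamine, gentamicin, penicillin and streptomycin. Whether a pair of arrays stands for different animals, pools of animals or dishes is not stated, and the p-values cover the spread between arrays alone, part or all of which may be technical.

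Granulosa cells line the ovarian follicle, feed and signal to the oocyte, and after ovulation become steroid-producing luteal cells. Once taken from the follicle and plated in serum, they attach, spread and lose contact with the oocyte and the theca layer. In the ovulating follicle, granulosa cells are known to switch on matrix-degrading enzymes, prostaglandin and chemokine genes and EGF-like signals as tissue is broken down and rebuilt.

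The values are log2 intensities, so that 1 unit is a 2-fold difference within a gene. They say nothing of the order of levels between genes, because each feature has its own probes. The medians of the 8 arrays ran from 4.52 to 4.63. In bulk RNA such as this, fewer cells of a type and less RNA per cell cannot be told apart. The 2 arrays of 144 h were the least alike pair, with an SD of their difference of 0.383 over all features against 0.162 at 96 h. The mean of 19 measured genes of granulosa identity was 8.02 and 8.04 at 0 h, 7.07 and 7.10 at 48 h, 6.09 and 6.11 at 96 h, and 6.11 and 6.22 at 144 h. Of these 19 genes, 11 were called lower at 48 h than at 0 h and 3 higher. All 6 measured oocyte markers were called lower at 48 h than at 0 h.

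The margin of the 48 h mean over the next highest time had a median of 1.16, or 2.24-fold, and ran from 0.80 to 3.57. It was at least 1 in 67 of the 94 genes and at least 2 in 7. The median difference of 48 h from 0 h was 1.76. The lowest 48 h array lay above the highest other array by a median of 0.90, and by as little as 0.16. After 48 h, the next highest time was 0 h in 26 genes, 96 h in 26 and 144 h in 42. The lowest time was 0 h in 52 genes, 96 h in 27 and 144 h in 15. The genes thus shared the 48 h peak but not the level on either side of it. At 48 h, both arrays lay above their array's median in 80 of the 94 genes, and in 8 genes no array of any time did. In 18 genes both 0 h arrays lay below the lower quartile of all features, which was 3.23 and 3.25 on those arrays. A level this low is not shown to be above background. Where both arrays of a time lay that low in a gene, its levels and calls against that time are given below with no size of difference. Margins, and medians over the 94 genes, use the values as measured, also where the next highest time lay that low.

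**Figure D1:**
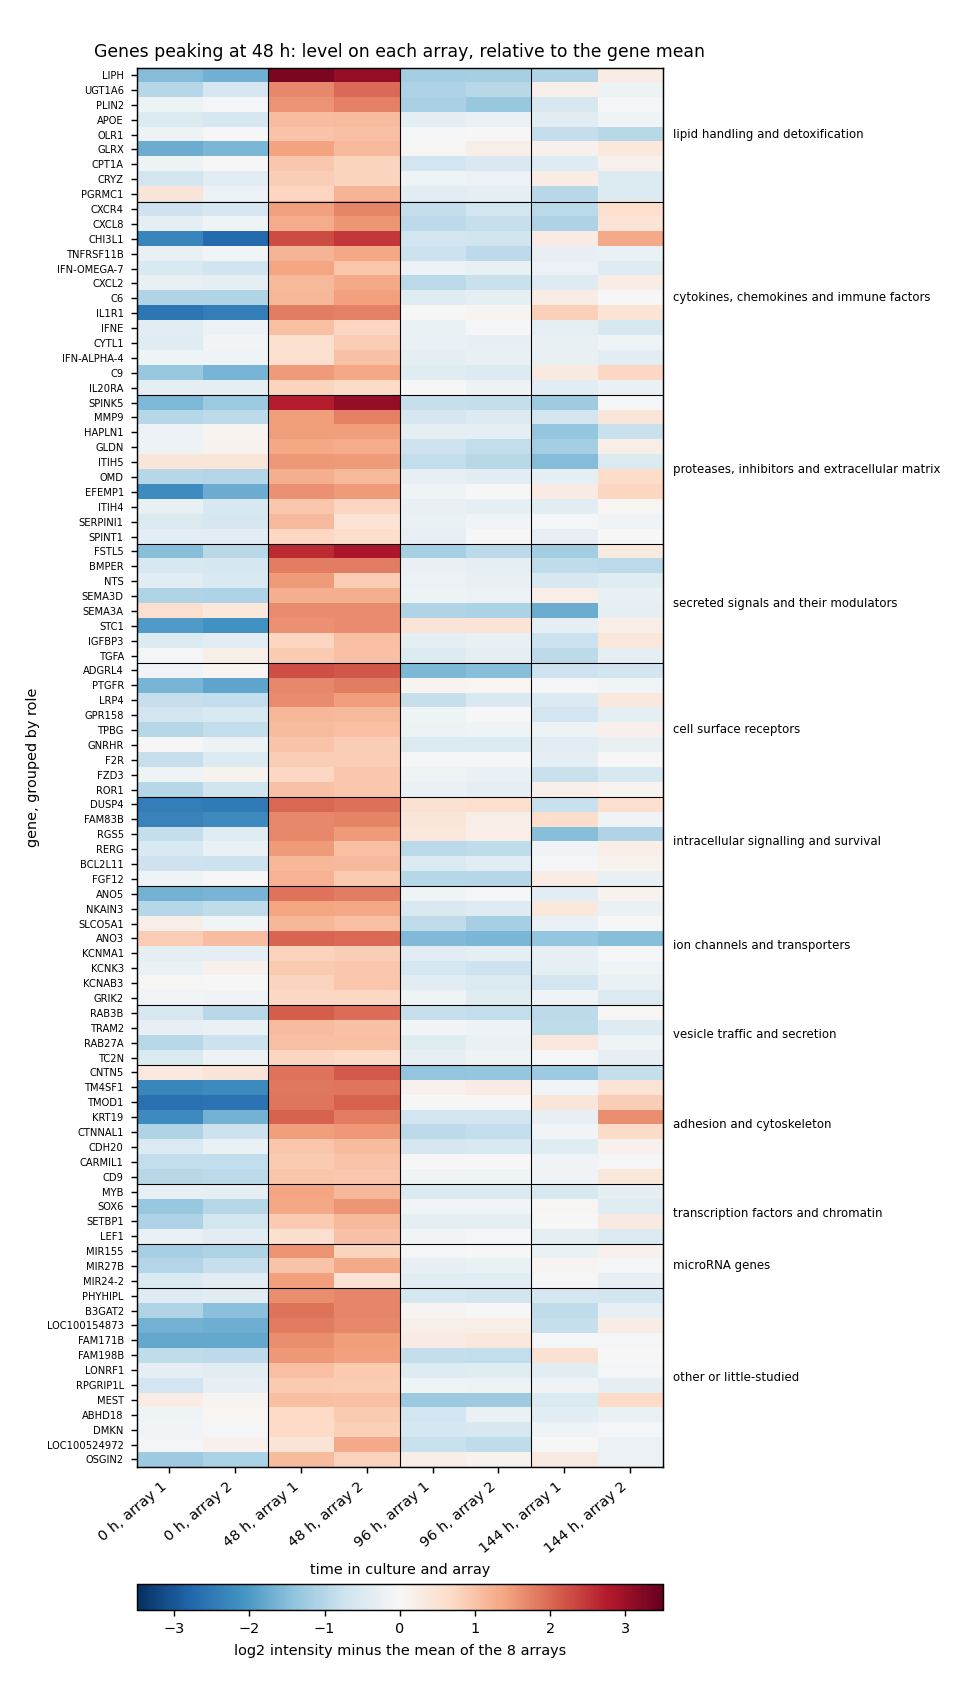
Level of the 94 genes on each of the 8 arrays, as the log2 difference from the gene's own mean over all arrays. Rows are genes grouped by role, columns are arrays in order of time. The 48 h columns are the highest in every row because the genes were chosen for it, while the 0 h, 96 h and 144 h columns differ from row to row, and the 2 arrays of 144 h differ from each other in part of the rows.

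The 5 genes with the smallest margins were IL20RA at 0.83, LOC100524972 at 0.82, CD9 at 0.82, and OSGIN2 and SPINT1 at 0.801 each. Just outside the threshold were IFN-ALPHA-17 and DLGAP1 at 0.797, PIP4K2C at 0.79, GPR146 at 0.78 and MEGF10 at 0.77. Nothing separates these 2 groups but the threshold. By the same rule at the other times, 639 named genes peaked at 0 h, 230 at 96 h and 73 at 144 h. Named genes with their lowest level at 48 h numbered 23.

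The differences among 0 h, 96 h and 144 h are no term of the rule, and they were tested in a model over all features. The rule did use the levels of these arrays against 48 h, and it keeps out genes that peak at another time, 639 of them at 0 h. The shares below are therefore given beside the background with nothing read from them. At 144 h, 36 of the 94 genes (38.3%) were higher than at 0 h, against 19.2% of all named genes and 15.4% of all features. Called lower at 144 h were 12 (12.8%), against 17.6% of named genes and 16.7% of all features, and 46 were not called. At 96 h, 29 (30.9%) were higher than at 0 h, where 21.5% of named genes and 19.0% of all features were, and 14 (14.9%) were lower, where 23.4% and 22.3% were. The median difference of the 94 genes was 0.27 at 144 h and 0.19 at 96 h, both against 0 h, while the medians of all named genes were -0.03 and -0.01. All named genes include many that do not vary with time, so these shares are a background and not a matched comparison. A group of 26 was higher than 0 h at both 96 h and 144 h, and 5 were lower at both. At neither time were 35 called. A background share for these joint counts was not taken, and nothing is read from them. Without 0 h array 2, the genes called lower at 144 h numbered 7.

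Between 144 h and 96 h, 18 of the 94 genes (19.1%) were higher at 144 h, against 13.0% of named genes and 12.1% of all features, and 7 (7.45%) were lower, against 10.1% of both. These calls were the least stable. When each array was left out in turn, 6 of the 25 remained in every fit, compared with 36 of the 48 calls of 144 h against 0 h and 33 of the 43 calls of 96 h against 0 h. Without the 96 h arrays, 33 genes were called higher for 144 h against 0 h and 9 called lower. For 144 h against 96 h, the genes called higher numbered 5 without 96 h array 1, 4 without 96 h array 2 and 37 without 144 h array 1. Those called lower numbered 3 without either 96 h array, 4 without 144 h array 1 and 15 without 144 h array 2.

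**Figure D2:**
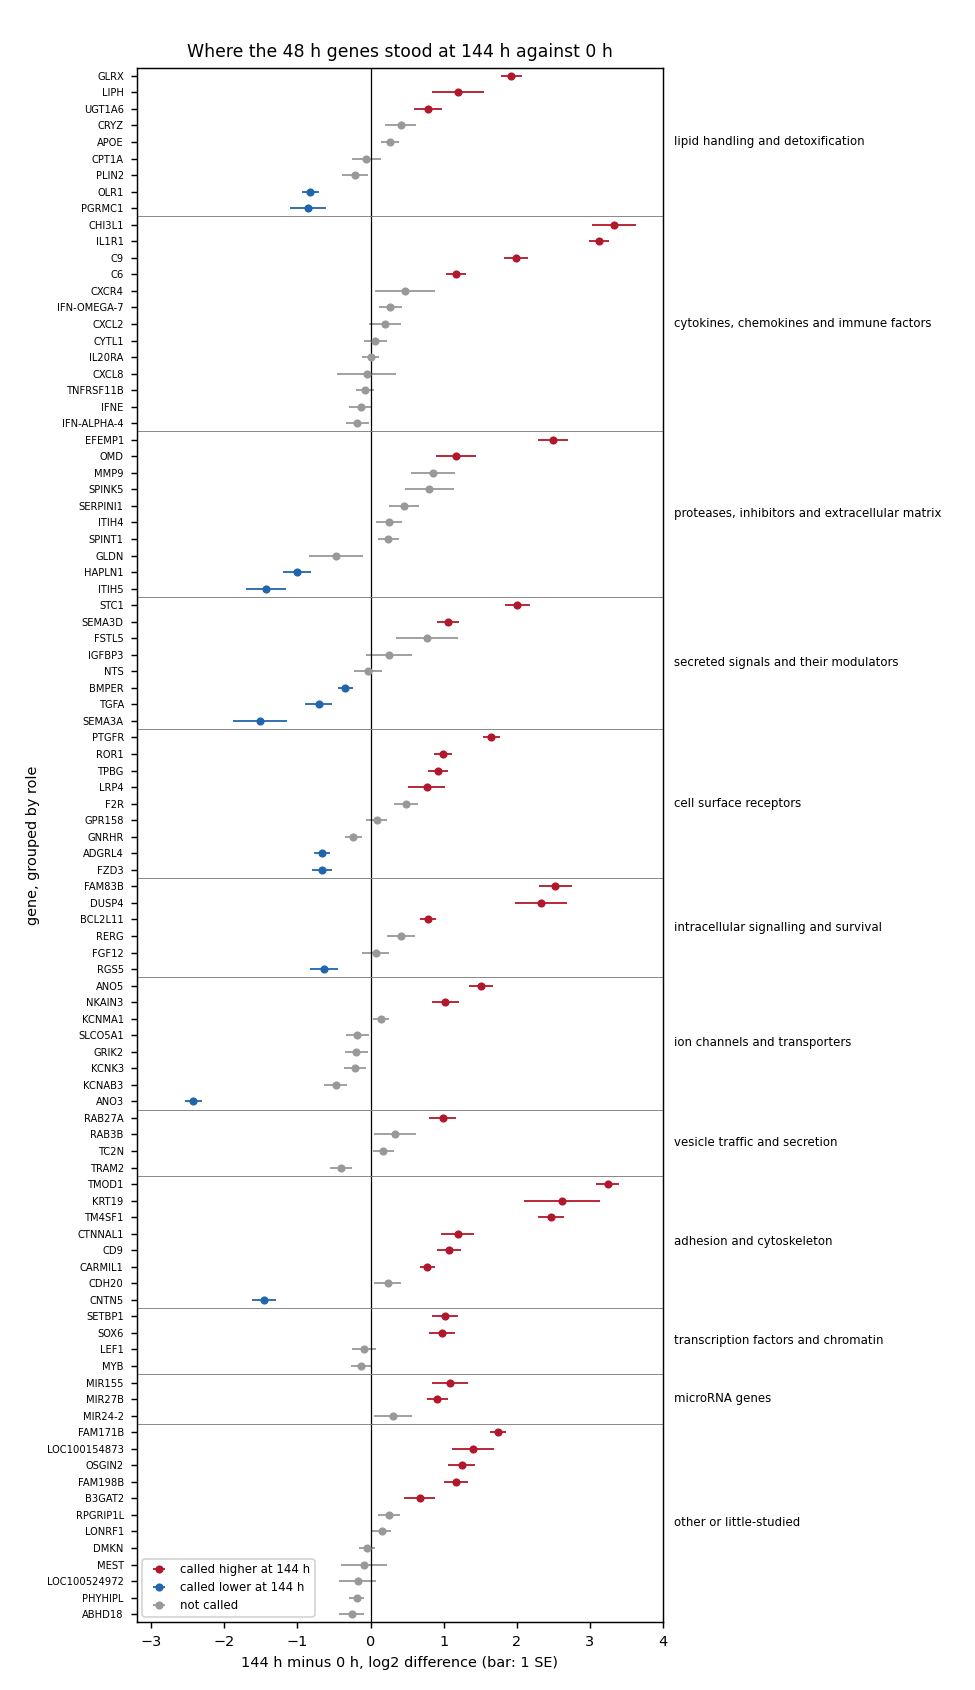
The log2 difference of 144 h from 0 h for each of the 94 genes, with bars for the standard error, grouped by role. Red points are genes called higher at 144 h and blue points genes called lower, at an adjusted p below 0.05, and grey points were not called. Differences are plotted as measured, also where a level was below the lower quartile of all features. CHI3L1 stands highest at 3.33, and every role with more than 4 genes holds differences of both signs.

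Among the enzymes and carriers of lipids was the gene with the largest margin of all, LIPH, a lipase that makes the signalling lipid lysophosphatidic acid. LIPH had 2.50 and 2.32 at 0 h, 7.29 and 7.07 at 48 h, 2.82 and 2.83 at 96 h, and 2.95 and 4.26 at 144 h. The 48 h arrays stood 2.81 above the next array, which was the second of 144 h. Both 0 h arrays lay below the lower quartile. LIPH was called higher at 144 h than at 0 h with an adjusted p of 0.0319, but this call was lost in 6 of the 8 fits that left out 1 array, with adjusted p up to 0.145. PLIN2, the protein that coats lipid droplets, had 7.17 and 7.29 at 0 h, 8.93 and 9.10 at 48 h, 6.20 and 6.01 at 96 h, and 6.78 and 7.26 at 144 h. Its 96 h arrays were the lowest of the series and fell by 1.12 ± 0.17 (SE, n = 2 per time) relative to 0 h (adjusted p = 0.0010), and the 144 h level did not differ detectably from 0 h (difference -0.21 ± 0.17, adjusted p = 0.42). CPT1A, the carnitine acyltransferase that admits fatty acids to mitochondria, peaked with a margin of 0.95 and stood at -0.06 ± 0.19 relative to 0 h at 144 h.

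The other genes of this group split after the peak. GLRX, a glutaredoxin that restores oxidised protein thiols, had 3.40 and 3.53 at 0 h, 6.54 and 6.27 at 48 h, 5.17 and 5.34 at 96 h, and 5.28 and 5.50 at 144 h. It kept a plateau above its starting level, and rose by 1.92 ± 0.14 at 144 h relative to 0 h (adjusted p = 2.5e-05). UGT1A6, which attaches glucuronic acid to phenols and drugs, was 0.79 ± 0.19 above 0 h at 144 h (adjusted p = 0.013, lost without 0 h array 1 or 144 h array 1, at 0.0913 and 0.0603). Its probes may also see other products of the UGT1A locus, which share exons. OLR1, a scavenger receptor for oxidised low-density lipoprotein, had 6.96 and 7.16 at 0 h, 8.15 and 8.18 at 48 h, 7.06 and 7.11 at 96 h, and 6.32 and 6.16 at 144 h. Its 144 h arrays were the lowest and fell by 0.82 ± 0.12 relative to 0 h (adjusted p = 0.0010). PGRMC1, a haem-binding membrane protein linked to progesterone signalling in granulosa cells, fell by 0.85 ± 0.25 (adjusted p = 0.0307), a call lost without any 1 of 4 arrays. APOE, a carrier of cholesterol between cells, and CRYZ, a quinone reductase, peaked with margins of 1.36 and 0.91 and were not called at either later time.

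Of the 13 cytokine, chemokine and immune genes, 4 were called higher and 0 lower for 144 h against 0 h, where 19.2% and 17.6% of named genes were. CXCL8, the chemokine that draws neutrophils, had 4.81 and 4.99 at 0 h, 6.45 and 6.70 at 48 h, 4.24 and 4.35 at 96 h, and 4.07 and 5.62 at 144 h. CXCR4, the receptor for CXCL12, had 5.66 and 5.80 at 0 h, 7.82 and 8.10 at 48 h, 5.55 and 5.71 at 96 h, and 5.43 and 6.96 at 144 h. In both genes the second array of 144 h lay above 0 h and the first lay below it, and the difference of 144 h from 0 h was not called (-0.05 ± 0.41 for CXCL8 and 0.47 ± 0.41 for CXCR4). Without the first 144 h array, the CXCL8 difference turned to 0.72. CXCL2, a related neutrophil chemokine, had a margin of 1.32 and was not called against 0 h at 96 h or 144 h.

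CHI3L1, a secreted chitinase-like glycoprotein of inflamed and remodelling tissue, showed the largest difference of 144 h from 0 h. Its levels were 4.84 and 4.44 at 0 h, 9.45 and 9.62 at 48 h, 6.49 and 6.45 at 96 h, and 7.45 and 8.49 at 144 h. All later arrays lay above both 0 h arrays, and CHI3L1 rose by 3.33 ± 0.30 at 144 h relative to 0 h (adjusted p = 7.2e-05). IL1R1, the signalling receptor for interleukin-1, had 4.13 and 4.24 at 0 h, 8.45 and 8.42 at 48 h, 6.64 and 6.75 at 96 h, and 7.49 and 7.14 at 144 h. IL1R1 rose by 3.13 ± 0.14 at 144 h relative to 0 h (adjusted p = 1.8e-06), with all later arrays above both 0 h arrays. C6 and C9, components of the complement pore that pierces membranes, were also above 0 h on every later array. C9 had 3.47 and 3.18 at 0 h, 6.29 and 6.15 at 48 h, 4.36 and 4.31 at 96 h, and 5.11 and 5.53 at 144 h, and rose by 1.99 ± 0.17 at 144 h relative to 0 h (adjusted p = 4.7e-05). C6 rose by 1.18 ± 0.14 (adjusted p = 0.00031). TNFRSF11B, the decoy receptor osteoprotegerin, was called lower at 96 h than at 0 h (adjusted p = 0.0032), with both 96 h arrays below the lower quartile, and was not called at 144 h.

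The other 5 immune genes were called at neither later time. The interferon genes IFN-OMEGA-7, IFNE and IFN-ALPHA-4 peaked with margins of 1.41, 1.06 and 0.93. Porcine interferon alpha and omega genes form families of close copies, so the signal of their probes may belong to relatives. IL20RA, a subunit of receptors for interleukin-20 family cytokines, and CYTL1, a small secreted cytokine-like protein, reached at most 3.81 and 4.18 on any array. In all of these genes but IFNE, both arrays of the next highest time lay below the lower quartile of all features.

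Of the 10 protease, inhibitor and matrix genes, SPINK5 had the second largest margin of the 94. It encodes a serine protease inhibitor best known from human skin. SPINK5 had 3.85 and 4.13 at 0 h, 8.18 and 8.50 at 48 h, 4.63 and 4.59 at 96 h, and 4.19 and 5.40 at 144 h. The 6 other arrays lay between 3.85 and 5.40, and the difference of 144 h from 0 h, 0.80 ± 0.34, was not called (adjusted p = 0.11). MMP9, the gelatinase that cuts denatured collagen and basement membrane, had 4.20 and 4.28 at 0 h, 6.66 and 6.98 at 48 h, 4.60 and 4.72 at 96 h, and 4.56 and 5.63 at 144 h. Its second 144 h array also lay above its other arrays outside 48 h, and the difference of 0.85 ± 0.30 at 144 h relative to 0 h missed the threshold (adjusted p = 0.064).

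The structural matrix genes ended on both sides of 0 h. EFEMP1, the elastic-fibre protein fibulin-3, had 5.62 and 6.09 at 0 h, 9.43 and 9.32 at 48 h, 7.69 and 7.82 at 96 h, and 8.11 and 8.60 at 144 h, and rose by 2.50 ± 0.20 at 144 h relative to 0 h (adjusted p = 4e-05). HAPLN1, which ties hyaluronan to proteoglycans and is known from the matrix of the expanding cumulus, had 4.01 and 4.31 at 0 h, 5.68 and 5.67 at 48 h, 3.87 and 3.87 at 96 h, and 2.86 and 3.44 at 144 h. Its 144 h arrays were the lowest and fell by 1.01 ± 0.19 relative to 0 h (adjusted p = 0.0044). ITIH5, of the family whose heavy chains are bound to hyaluronan, fell by 1.43 ± 0.28 (adjusted p = 0.0047). Its relative ITIH4 peaked with a margin of 1.00 and was not called. OMD, a small keratan sulphate proteoglycan, was called higher at 144 h than at 0 h (adjusted p = 0.0124), a call lost without either 0 h array, and both of its 0 h arrays lay below the lower quartile. GLDN, SERPINI1 and SPINT1 were not called at 96 h or 144 h.

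Among 8 secreted signals, FSTL5, a secreted protein of the follistatin-like family, had 2.999 and 3.519 at 0 h, 7.11 and 7.33 at 48 h, 3.32 and 3.53 at 96 h, and 3.26 and 4.81 at 144 h. Its 0 h, 96 h and 144 h means were not called different from each other. BMPER, which binds bone morphogenetic proteins outside the cell and tunes their signalling, had 4.66 and 4.64 at 0 h, 7.01 and 7.02 at 48 h, 4.95 and 4.91 at 96 h, and 4.33 and 4.27 at 144 h. The arrays of each pair were close, and BMPER fell by 0.63 ± 0.10 at 144 h relative to 96 h (adjusted p = 0.0039), a call that remained in every fit with 1 array left out. The fall relative to 0 h, 0.35 ± 0.10 (adjusted p = 0.0327), was lost in 7 of 8 such fits and after median centring, quantile normalization or cyclic loess. STC1, the glycoprotein hormone stanniocalcin 1, had 5.55 and 5.43 at 0 h, 9.14 and 9.19 at 48 h, 7.99 and 8.03 at 96 h, and 7.23 and 7.77 at 144 h. All later arrays lay above both 0 h arrays, and STC1 rose by 2.01 ± 0.17 at 144 h relative to 0 h (adjusted p = 5.4e-05).

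The class 3 semaphorins SEMA3A and SEMA3D, secreted guidance signals that act through neuropilins and plexins, parted after 48 h. SEMA3A had 9.42 and 9.22 at 0 h, 10.51 and 10.49 at 48 h, 7.80 and 7.74 at 96 h, and 7.10 and 8.51 at 144 h. SEMA3D had 4.82 and 4.76 at 0 h, 7.13 and 7.14 at 48 h, 5.67 and 5.65 at 96 h, and 6.09 and 5.61 at 144 h. SEMA3A fell by 1.51 ± 0.37 at 144 h relative to 0 h (adjusted p = 0.0145, lost without either 0 h array), while SEMA3D rose by 1.06 ± 0.16 (adjusted p = 0.0011). TGFA, a ligand of the EGF receptor, fell by 0.71 ± 0.18 (adjusted p = 0.0198, lost without 0 h array 2 or 144 h array 1). IGFBP3, which carries insulin-like growth factors, and NTS, the neurotensin precursor, were not called at either later time.

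**Figure D3:**
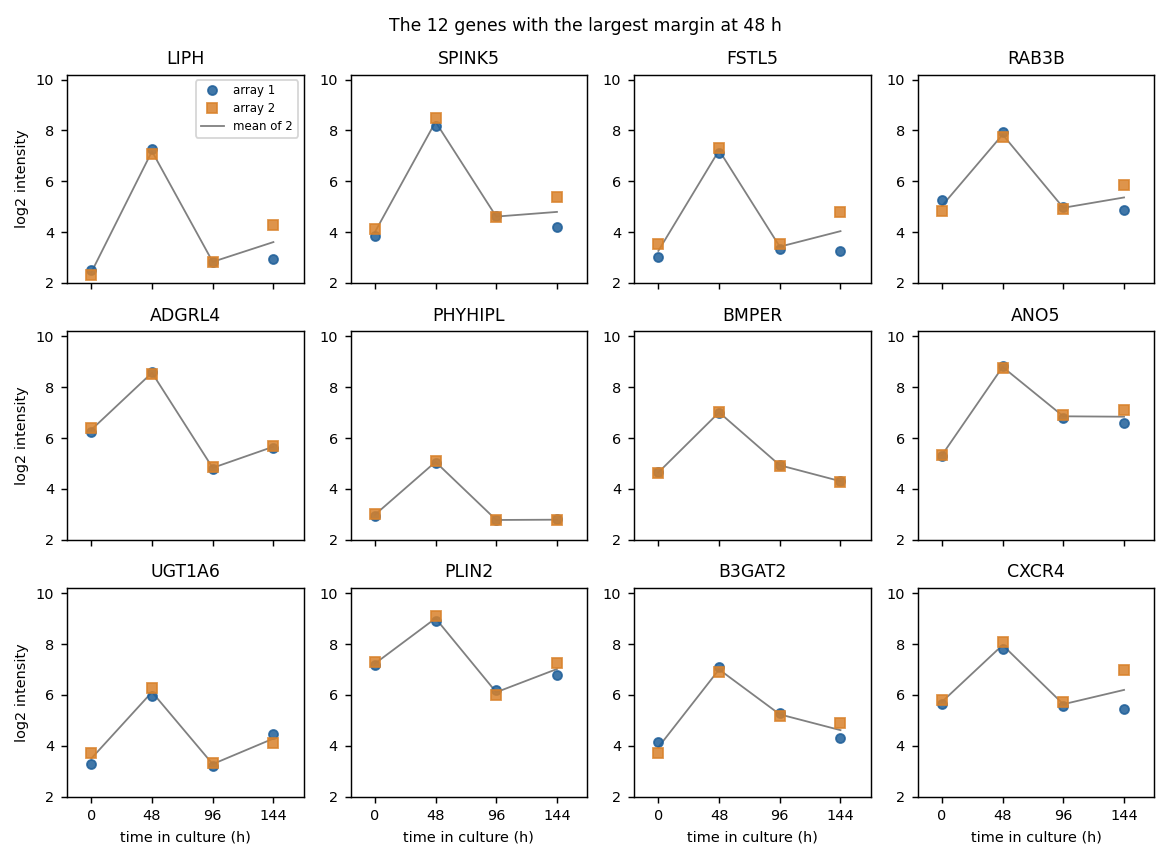
Level of the 12 genes with the largest margin on each array, in log2 intensity against hours of culture, with a point for each array and a line through the means. All 12 panels peak at 48 h by choice. The second 144 h array of LIPH, SPINK5, FSTL5 and CXCR4 lies more than 1 unit above the first.

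The 9 surface receptors included the gene for the prostaglandin F2 alpha receptor, PTGFR, through which prostaglandins end the life of the corpus luteum. PTGFR had 7.23 and 6.99 at 0 h, 10.53 and 10.63 at 48 h, 8.94 and 8.90 at 96 h, and 8.79 and 8.74 at 144 h. The arrays after the peak lay close together and above 0 h, and PTGFR rose by 1.65 ± 0.12 at 144 h relative to 0 h (adjusted p = 2.1e-05). ADGRL4, an adhesion receptor best known from blood vessel endothelium, had 6.24 and 6.41 at 0 h, 8.61 and 8.53 at 48 h, 4.79 and 4.87 at 96 h, and 5.62 and 5.70 at 144 h. It ended below its start, fell by 1.50 ± 0.11 at 96 h and by 0.66 ± 0.11 at 144 h relative to 0 h (adjusted p = 2.1e-05 and 0.0026), and rose by 0.83 ± 0.11 at 144 h relative to 96 h (adjusted p = 0.0019). Of the 6 endothelial markers measured, none is a member, and their mean level lay between 3.48 and 3.72 on all 8 arrays. PECAM1 averaged 5.55 at 48 h and 4.54 at 0 h. Unlike ADGRL4, PECAM1 stayed above its 0 h mean later, with 5.07 for 96 h and its highest mean, 5.68, for 144 h. VWF, KDR, TEK, CLDN5 and SELE had lower means at 48 h than at 0 h. Both arrays of TEK and both of SELE lay below the lower quartile at 0 h and again at 48 h. Only PECAM1 of the 6 lay above the medians of the 48 h arrays. The part of endothelial cells in the ADGRL4 peak was not tested.

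Receptors of the Wnt pathway were represented by FZD3, a Frizzled receptor, ROR1, a tyrosine kinase-like co-receptor, LRP4, a low-density lipoprotein receptor relative, and TPBG, a glycoprotein that dampens Wnt signalling. FZD3 fell by 0.66 ± 0.14 at 144 h relative to 0 h (adjusted p = 0.0075, lost without 0 h array 2). ROR1 had 5.41 and 5.69 at 0 h, 7.41 and 7.34 at 48 h, 6.17 and 6.09 at 96 h, and 6.59 and 6.49 at 144 h, and rose by 0.99 ± 0.13 at 144 h relative to 0 h (adjusted p = 0.00054). TPBG rose by 0.93 ± 0.14 (adjusted p = 0.0011). LRP4, with both 0 h arrays below the lower quartile, was called higher (adjusted p = 0.0494), and that call was lost in 7 of 8 fits with 1 array left out. LEF1, a transcription factor that acts with beta-catenin on Wnt targets, peaked with a margin of 0.86 and was not called. Of the other 24 measured genes of a Wnt, Notch and hedgehog list, the 48 h level was called higher than 0 h in 3 and lower in 6, where 18.1% and 15.8% of named genes and 15.2% and 14.8% of all features were. F2R, the thrombin receptor, was not called at 144 h (0.48 ± 0.16, adjusted p = 0.053), and GNRHR, the receptor for gonadotropin-releasing hormone, reached at most 3.75 on any array.

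The signalling genes inside the cell were led by DUSP4, a phosphatase that switches off MAP kinases. DUSP4 had 4.56 and 4.51 at 0 h, 8.99 and 8.91 at 48 h, 7.51 and 7.56 at 96 h, and 6.19 and 7.55 at 144 h, and rose by 3.003 ± 0.36 at 96 h and 2.33 ± 0.36 at 144 h relative to 0 h (adjusted p = 0.00024 and 0.0014). FAM83B, a protein linked to signalling downstream of the EGF receptor, had 3.34 and 3.44 at 0 h, 7.37 and 7.41 at 48 h, 6.11 and 5.88 at 96 h, and 6.30 and 5.54 at 144 h, and rose by 2.53 ± 0.22 at 144 h relative to 0 h (adjusted p = 6.5e-05). Both stayed above every 0 h array at all later times. BCL2L11, which encodes the death-promoting protein BIM, rose by 0.78 ± 0.11 (adjusted p = 0.00089). FGF12 fell by 0.93 ± 0.19 at 96 h relative to 0 h (adjusted p = 0.0043). FGF12 and RERG were not called at 144 h against 0 h. Both were called higher at 144 h than at 96 h (adjusted p = 0.0072 and 0.0091). These calls were lost without either 96 h array.

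RGS5, a brake on G protein signalling and a marker of pericytes and vascular smooth muscle, was the only one of the 94 that was called higher than 0 h at 96 h and lower at 144 h. It had 7.53 and 7.92 at 0 h, 10.03 and 9.86 at 48 h, 8.72 and 8.60 at 96 h, and 6.86 and 7.31 at 144 h. It rose by 0.93 ± 0.19 at 96 h relative to 0 h (adjusted p = 0.0043) and fell by 1.57 ± 0.19 at 144 h relative to 96 h (adjusted p = 0.0010). The fall of 0.64 ± 0.19 at 144 h relative to 0 h (adjusted p = 0.0329) was lost without any 1 of 4 arrays. All of the other 8 measured markers of fibroblasts and smooth muscle were called higher at 48 h than at 0 h, and 7 of the 8 were called higher at 144 h than at 48 h. The mean over the list of 9, RGS5 included, was 5.61 and 5.73 at 0 h, 8.48 and 8.43 at 48 h, 9.26 and 9.25 at 96 h, and 9.80 and 9.60 at 144 h. The part of such cells in the RGS5 peak was not tested.

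Anoctamins, membrane proteins of the TMEM16 family, numbered 2. Both peaked at 48 h and ended on opposite sides of 0 h. ANO5, known from human muscle disease, had 5.31 and 5.34 at 0 h, 8.85 and 8.75 at 48 h, 6.80 and 6.92 at 96 h, and 6.59 and 7.09 at 144 h, and rose by 1.51 ± 0.16 at 144 h relative to 0 h (adjusted p = 0.00021). ANO3 had 5.01 and 5.20 at 0 h, 6.15 and 6.11 at 48 h, 2.58 and 2.51 at 96 h, and 2.75 and 2.62 at 144 h. Its later arrays lay below the lower quartile of all features, and it was called lower at 144 h than at 0 h (adjusted p = 2.7e-06). NKAIN3, a partner of the sodium pump, rose by 1.02 ± 0.18 (adjusted p = 0.0031). SLCO5A1, an organic anion transporter relative, fell by 1.09 ± 0.15 at 96 h relative to 0 h (adjusted p = 0.00063) and was not called at 144 h. The potassium channel genes KCNMA1, KCNK3 and KCNAB3 and the glutamate receptor gene GRIK2 had margins between 0.83 and 1.01 and were not called at 144 h. KCNK3 fell by 0.64 ± 0.15 at 96 h relative to 0 h (adjusted p = 0.0087), a call lost without 0 h array 2 or 96 h array 2. Both KCNMA1 arrays lay below the lower quartile at 0 h and at 96 h, and no KCNMA1 array lay above the median.

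In the vesicle group, RAB3B, a small GTPase of regulated secretion, had 5.24 and 4.81 at 0 h, 7.93 and 7.75 at 48 h, 4.99 and 4.92 at 96 h, and 4.88 and 5.84 at 144 h. The levels on either side of the peak were not called different. RAB27A, which docks secretory vesicles at the plasma membrane, rose by 0.99 ± 0.18 at 144 h relative to 0 h (adjusted p = 0.0041). TRAM2, which helps collagen through the endoplasmic reticulum membrane, and TC2N, a protein with C2 domains, were not called against 0 h.

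Of the 8 adhesion and cytoskeleton genes, 6 were called higher and 1 lower for 144 h against 0 h, where 19.2% and 17.6% of named genes were. The roles were set with the values known, so nothing is read from a role's share. TMOD1, the tropomodulin that caps the slow-growing end of actin filaments, had 4.78 and 4.83 at 0 h, 9.28 and 9.47 at 48 h, 7.38 and 7.38 at 96 h, and 7.83 and 8.27 at 144 h, and rose by 3.24 ± 0.16 at 144 h relative to 0 h (adjusted p = 2.7e-06). TM4SF1, a tetraspanin-like surface protein, had 3.73 and 3.78 at 0 h, 7.86 and 7.88 at 48 h, 6.19 and 6.30 at 96 h, and 5.94 and 6.52 at 144 h, and rose by 2.47 ± 0.18 (adjusted p = 2.1e-05). KRT19, a keratin of simple epithelia, had 4.52 and 5.09 at 0 h, 8.82 and 8.55 at 48 h, 6.08 and 6.12 at 96 h, and 6.46 and 8.39 at 144 h. KRT19 rose by 2.62 ± 0.52 at 144 h relative to 0 h (adjusted p = 0.0053), with the 144 h arrays further apart than in any other of the 94 genes. EPCAM, the other measured marker of surface epithelium, had a mean of 2.73 at 0 h and 3.38 at 48 h, then 2.86 at 96 h and 2.85 at 144 h. Both EPCAM arrays lay below the lower quartile at 0 h, 96 h and 144 h, and below the median at 48 h. The part of epithelial cells in the KRT19 values was not tested. CTNNAL1, a catenin relative, CD9, a tetraspanin, and CARMIL1, a regulator of actin capping, rose by 1.19 ± 0.23, 1.08 ± 0.16 and 0.78 ± 0.10 at 144 h relative to 0 h (adjusted p = 0.0044, 0.0013 and 0.00068). CNTN5, a contactin of neuronal surfaces, had 4.99 and 5.07 at 0 h, 6.54 and 6.77 at 48 h, 3.24 and 3.28 at 96 h, and 3.36 and 3.79 at 144 h. CNTN5 fell by 1.45 ± 0.16 at 144 h relative to 0 h (adjusted p = 0.00023).

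Of the 4 genes for transcription factors and chromatin proteins, MYB, best known from blood progenitors, had 4.12 and 4.07 at 0 h, 5.80 and 5.56 at 48 h, 3.91 and 3.89 at 96 h, and 3.84 and 4.09 at 144 h. Its 6 other arrays lay within 3.84 and 4.12, so the peak stood on a flat line. SOX6, a factor of cartilage and muscle development, and SETBP1, a SET-binding protein, rose by 0.97 ± 0.18 and 1.02 ± 0.17 at 144 h relative to 0 h (adjusted p = 0.0038 and 0.0026). Features for 3 microRNA genes also met the rule, MIR155, MIR27B and MIR24-2. MIR155 had 1.97 and 2.05 at 0 h, 4.70 and 3.92 at 48 h, 3.09 and 3.15 at 96 h, and 2.90 and 3.29 at 144 h. These features are dim, with both 0 h arrays below the lower quartile, although both 48 h arrays of MIR27B lay above the median. None of the 3 is shown to measure the mature microRNA rather than its precursor transcript. MIR27B, with both 0 h arrays below the lower quartile, was called higher at 144 h than at 0 h (adjusted p = 0.0018).

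The last 12 genes have other or little-known roles. PHYHIPL, of unknown function in the ovary, had 2.952 and 3.004 at 0 h, 5.02 and 5.10 at 48 h, 2.79 and 2.77 at 96 h, and 2.81 and 2.76 at 144 h, and so lay below the lower quartile of all features on every array outside 48 h. B3GAT2, a glucuronyltransferase that builds the HNK-1 sugar, had 4.15 and 3.73 at 0 h, 7.10 and 6.90 at 48 h, 5.28 and 5.18 at 96 h, and 4.32 and 4.90 at 144 h. It rose by 1.29 ± 0.21 at 96 h relative to 0 h (adjusted p = 0.0015), and its call at 144 h was lost in 6 of 8 fits with 1 array left out. MEST, an imprinted gene of the alpha/beta hydrolase fold, fell by 1.46 ± 0.31 at 96 h relative to 0 h (adjusted p = 0.0057) and had 8.24 and 9.40 at 144 h. The difference of 144 h from 0 h in MEST, -0.09 ± 0.31, turned to 0.49 without the first 144 h array. FAM171B and FAM198B rose by 1.74 ± 0.11 and 1.17 ± 0.17 at 144 h relative to 0 h (adjusted p = 1.1e-05 and 0.00093).

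The gaps of more than 1 log2 unit between the 2 arrays of 144 h ran in 1 direction in these genes. The second array lay more than 1 log2 unit above the first in 16 of the 94 genes, or 17%, and in no gene did the first lie more than 1 unit above the second. Over all 10707 named genes, the second was above by more than 1 in 81, or 0.757%, and the first in 74, or 0.691%. The 16 genes make up 19.8% of those 81. Counting all sizes, the second array was higher in 65 of the 94 genes (69.1%) and in 53.6% of named genes. The rule used both arrays only against 48 h and not against each other. Genes that vary strongly over time are a selected set, and all named genes are not a matched background for them. The 94 genes share this 1 pair of arrays, so they are not separate observations of the gap. The comparison was not among those planned, and no test is given.

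The 16 genes were KRT19 with a difference of 1.93, CXCL8 and FSTL5 with 1.55, CXCR4 with 1.53, SEMA3A with 1.40, GLDN with 1.38, DUSP4 with 1.36, LIPH with 1.31, SPINK5 with 1.21, IGFBP3 and MEST with 1.16, MMP9 with 1.08, LOC100154873 with 1.07, CHI3L1 with 1.04, ITIH5 with 1.02 and OMD with 1.01. They come from 7 of the 12 roles. The median absolute difference between the 2 arrays of a time over the 94 genes was 0.148 at 0 h and 0.143 at 48 h. It was 0.0664 at 96 h, and at 144 h it was 0.421. Of the 23 named genes with their lowest level at 48 h, the second 144 h array lay below the first in 17, by more than 1 in 2, and above it by more than 1 in none. Of 105 features without a name that met the rule, the second array was above in 63, by more than 1 in 3, and below by more than 1 in none, while 0.769% of all features without a name were above by more than 1.

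**Figure D4:**
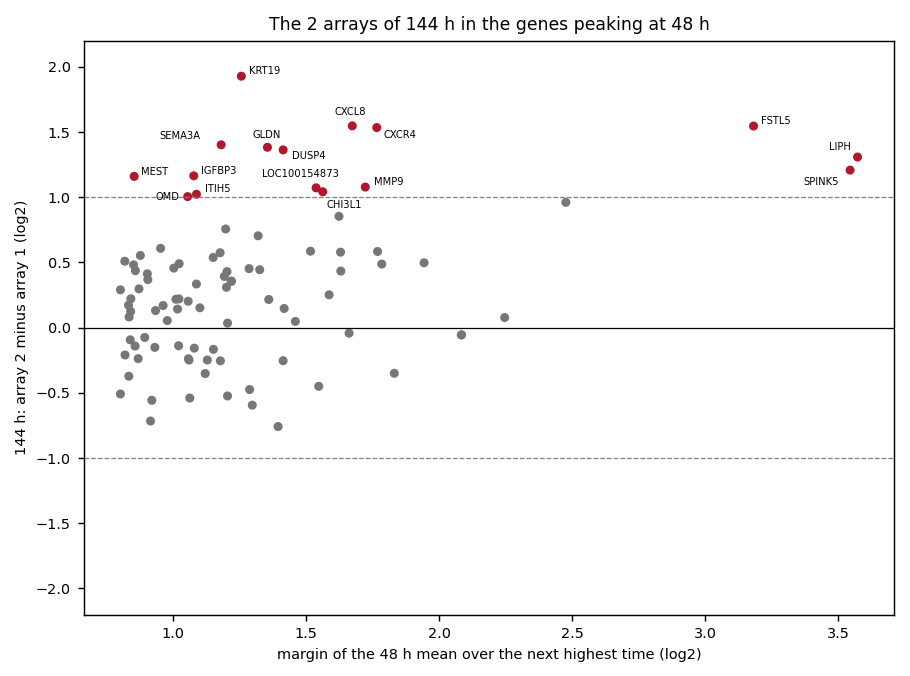
The second 144 h array minus the first, in log2 units, for each of the 94 genes against the margin of its 48 h peak. Dashed lines mark 1 unit either way. The 16 named points lie above the upper line, KRT19 highest at 1.93, and no point lies below the lower line.

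Markers of several cell types differed between the same pair of arrays. Over all named genes, 53.6% were higher on the second array. Of 13 measured macrophage and leukocyte markers, none a member, 12 were higher on the second 144 h array than on the first, 3 of them by more than 1. Their mean level was 4.88 and 4.97 at 0 h, 4.62 and 4.80 at 48 h, 4.09 and 4.10 at 96 h, and 3.95 and 4.43 at 144 h. The complement gene C1QB, expressed by macrophages, had 4.17 and 5.77 at 144 h, and FCER1G, an Fc receptor subunit, had 3.69 and 5.16. PTPRC, the pan-leukocyte marker CD45, had 3.52 and 3.67. The mean of the markers was highest at 0 h and not at 48 h, and 1 of the 13 was called higher and 1 lower at 48 h against 0 h. The part of leukocytes in the values of CXCL8, CXCR4 and MMP9 was not tested. All 5 theca markers and 5 of 6 endothelial markers were also higher on the second 144 h array, none by more than 1. Of these 2 lists, CYP17A1, KDR, TEK and SELE lay below the lower quartile on both 144 h arrays. So did AIF1, ITGAM and CD2 among the macrophage and leukocyte markers. The theca marker INSL3 is also in the list of granulosa identity. Of 8 fibroblast and smooth muscle markers, 2 were higher there, and 1 was lower by more than 1. The part of these cells in the gap between the arrays was not tested. Of 19 genes of granulosa identity, 13 were higher on the second array, 1 by more than 1, and the first was above by more than 1 in 1.

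Of the lists of known pathways, 3 held at least 2 of the 94 genes. In the list of inflammatory cytokines and chemokines, CXCL8 and CXCL2 were members, and of the other 24 measured genes 10 were called higher at 48 h than at 0 h and 4 were called lower. In the list of EGF family ligands and MAP kinase feedback genes, TGFA and DUSP4 were members, and 8 of the other 15 were higher and 2 lower. In the list of fatty acid and lipid droplet genes, PLIN2 and CPT1A were members, and 8 of the other 17 were higher and 1 lower. Called higher at 48 h were 18.1% of all named genes and called lower 15.8%, and over all features 15.2% and 14.8%. The median differences of the other genes in the 3 lists were -0.01, 0.74 and 0.26, and that of all named genes was -0.04.

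The 3 lists held 56 genes outside the 94. Of these, 26 were called higher at 48 h than at 0 h and 7 lower. At 144 h, 13 were called higher than at 48 h and 4 lower, where 5.53% and 4.89% of all named genes were and 4.32% of all features each way. CCL2, which draws monocytes, had 6.32 and 6.28 at 0 h, 9.84 and 10.00 at 48 h, 11.13 and 11.08 at 96 h, and 10.79 and 11.03 at 144 h, so that it rose by 3.62 ± 0.12 at 48 h relative to 0 h (adjusted p = 1e-06) and by a further 0.99 ± 0.12 at 144 h relative to 48 h (adjusted p = 0.0025). The cytokine gene LIF rose by 3.06 ± 0.22 at 48 h (adjusted p = 2.91e-05) and was not called at 144 h against 48 h (0.37 ± 0.22, adjusted p = 0.41). CXCL10, a chemokine driven by interferon, fell by 4.77 ± 0.22 at 48 h relative to 0 h (adjusted p = 3.47e-06). DUSP5 and SPRY2, feedback inhibitors of the ERK pathway like DUSP4, rose by 2.59 ± 0.22 and 1.92 ± 0.23 at 48 h relative to 0 h (adjusted p = 6.97e-05 and 0.000507), and neither was called at 144 h against 48 h. LIPG, endothelial lipase, had 3.39 and 3.33 at 0 h, 6.21 and 6.42 at 48 h, 10.93 and 10.94 at 96 h, and 10.49 and 9.69 at 144 h. LIPG rose by 2.95 ± 0.23 at 48 h relative to 0 h (adjusted p = 4.75e-05) and by a further 3.78 ± 0.23 at 144 h relative to 48 h (adjusted p = 0.000105).

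Other features on the array bear on the gene names. The 94 genes had 7 further features. Of these, 2 held values identical to the feature used, and 5, of 4 genes, differed from it. All 5 had their highest mean at 48 h, and 3 met the rule, in CXCL2 with a margin of 1.44, TNFRSF11B with 1.04 and UGT1A6 with 1.92. Those of CPT1A, with 0.78, and CXCL2, with 0.42, did not. In the gene order of the Sscrofa11.1 assembly in RefSeq's table, 5 pairs of the 94 genes lay within 10 genes of each other. SEMA3D and SEMA3A were direct neighbours, as were MIR24-2 and MIR27B. ADGRL4 and PTGFR had 2 genes between them, CXCL8 and CXCL2 had 5, and IFNE and IFN-OMEGA-7 had 6. Neighbours shared the 48 h peak by choice but not always the rest of the course, as SEMA3A and SEMA3D and also ADGRL4 and PTGFR ended on opposite sides of their 0 h level.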

How the data were processed

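Total RNA of granulosa cells was biotin-labelled and hybridised to 8 Affymetrix arrays, per the labels' protocols. The deposited values are log2 intensities from RMA (robust multi-array averaging), which the submitters' processing notes name and whose version is not given in the sources used here. RMA gives the arrays a common distribution and so hides a change that most transcripts share. No detection call was used, and no batch is given, so batch and time cannot be told apart. With 2 arrays a time, their number limits the precision.

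Gene names come from the platform annotation in GEO, parts of which can be old. Of 27558 features, 11735 had 1 symbol, 239 repeated 1 symbol, 373 had several and 15211 had none. Symbols were updated through gene identifiers in 6 cases. For all features, limma 3.58.1 (R 4.3.3) fitted a mean for each time with lmFit and eBayes (4 residual degrees of freedom, prior 3.98). P-values are two-sided and carry a Benjamini-Hochberg adjustment over the 27558 features of each comparison. Called means an adjusted p below 0.05. The steps were tested on simulated data.

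The members, roles and gene lists were chosen with earlier results of these data known. The rule for names took the 20 largest margins, the 5 genes on each side of the threshold, the 10 largest called rises and falls of 144 h against 0 h, 5 each way for 144 h against 96 h and 96 h against 0 h, members of a list, members with another feature, and up to 4 other genes of each list with 2 or more members. The other members, marker genes and genes in the comparison of the 144 h arrays were named after their values were seen.

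Alternatives were median centring, quantile normalization, cyclic loess, leaving out dim features (percentile 40 of an array exceeded on fewer than 2 arrays), eBayes with trend and robust, fits to fewer times, the replicate number as a block, stricter calls, other margins, another choice of feature, and leaving out each array. A fit and a rule without the 96 h arrays were added after seeing the data. A planned promoter search was not run, as promoter sequences were not used here.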

Additional observations from a re-analysis of the deposited data

How the results depend on the processing

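The precision rests on 2 arrays for each time. The least settled results were those of 144 h against 96 h. Leaving out each array in turn gave 25 to 39 members called higher and 11 to 21 called lower for 96 h against 0 h. It gave 31 to 47 called higher and 7 to 17 (fewest without 0 h array 2) called lower for 144 h against 0 h. For 144 h against 96 h it gave 4 (without 96 h array 2) to 37 (without 144 h array 1) called higher and 3 (without 96 h array 1) to 15 (without 144 h array 2) called lower. The members themselves numbered 87 to 104. For the list genes outside the members, the ranges were 21 to 29 called higher and 6 to 11 called lower for 48 h against 0 h. For 144 h against 48 h they were 6 (without 48 h array 1) to 16 called higher and 1 (without 48 h array 1) to 13 (without 144 h array 2) called lower.

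With a fold of at least 2 required as well, 18 members were called higher and 8 called lower for 96 h against 0 h, 5 lower for 144 h against 0 h, and 5 higher and 1 lower for 144 h against 96 h. Of the list genes, 16 were then called higher for 48 h against 0 h, and 8 higher and 0 lower for 144 h against 48 h. With an adjusted p below 0.01, 7 members were called lower for 144 h against 0 h, 10 higher and 3 lower for 144 h against 96 h, and 6 list genes higher and 1 lower for 144 h against 48 h. Fits to only the arrays of the 2 times gave 7 members called lower for 144 h against 0 h, 3 lower for 144 h against 96 h, and 6 list genes higher and 0 lower for 144 h against 48 h. These settings use fewer arrays or stricter limits, and the cause of the changed counts was not tested.

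A margin of 0.6 gave 164 members and a margin of 1 gave 67. The rule without the 96 h arrays gave 117. The normalizations gave 91 to 97. Whether the replicate numbers pair the samples is not stated. The correlations of deviations between times ran from -0.0382 to 0.188, and over all features, many of them dim, they cannot settle it. With the replicate block, 30 members were called higher and 17 lower for 96 h against 0 h, 37 and 12 for 144 h against 0 h, and 20 and 6 for 144 h against 96 h. Without 144 h array 1 and array 2 in turn, the difference of 144 h from 0 h was 0.72 and -0.83 for CXCL8 and, without array 1, 0.49 for MEST. The difference of 144 h from 96 h was 0.43 and -0.60 for ITIH5 and 0.74 and -0.67 for SEMA3A.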
